A study of Danio rerio with 24 samples.

Results

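Liver libraries of 2-month zebrafish that carried a high or a low share of vitellogenin transcripts were compared here. Each fish was placed by the counts of the 7 vitellogenin genes (vtg1 to vtg7) as a percentage of all reads counted in its liver. Fish at 0.5% or more formed the high class and fish under 0.1% the low class, which placed 20 of the 24 fish, 10 in each class, and left 4 intermediate fish out. The classes were therefore chosen by a measured value and are not groups of the study, and the sex of the fish is not in the labels. The study sequenced polyA RNA of 6 livers of each of 4 genotypes, to compare fish carrying a human antitrypsin transgene with their siblings. A+ fish carry Tg(lfabp:eGFP-T2A-AAT), which makes the wildtype human protein behind green fluorescent protein, and Z+ fish carry Tg(lfabp:eGFP-T2A-ZAAT), which makes the Z mutant. The lfabp (fabp10a) promoter drives both transgenes in hepatocytes, and A- and Z- fish are the non-transgenic siblings of each line. No fish had a further treatment in the labels, and all were kept on the same light cycle and at the same temperature.

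Vitellogenins are the yolk precursors of egg-laying animals. Estrogen from the ovary enters the hepatocyte, binds the nuclear receptor encoded by esr1, and the receptor switches on the vitellogenin genes and its own gene. The proteins pass through the endoplasmic reticulum and the Golgi, where they take up lipid, sugar and, except for vtg3, long phosphorylated serine stretches, and leave through the blood for the growing egg. A liver in this state is known for a large load of secreted protein, and in young fish the state begins as the ovary matures.

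The vitellogenin share ran from 0.00586% of counts to 51.6%, an 8796-fold span. In the high class the lowest share was 0.540% (A+ replicate 1), the median 1.43% and the highest 51.6% (Z+ replicate 5), with Z- replicate 2 close to it at 49.2% and the next fish, A- replicate 1, at 5.19%. In the low class the lowest share was 0.00586% (Z+ replicate 3), the median 0.0188% and the highest 0.0960% (Z- replicate 1). The high class thus holds 2 livers in which vitellogenins made up about as many reads as all other genes together, and 8 in which they were a small part. The fish just outside the limits were Z- replicate 6 at 0.370%, below the high limit, and A+ replicate 5 at 0.106%, above the low limit. Every genotype held both classes: 3 high and 3 low in A-, 2 and 3 in A+, 2 and 2 in Z-, and 3 and 2 in Z+.

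**Figure D1:**
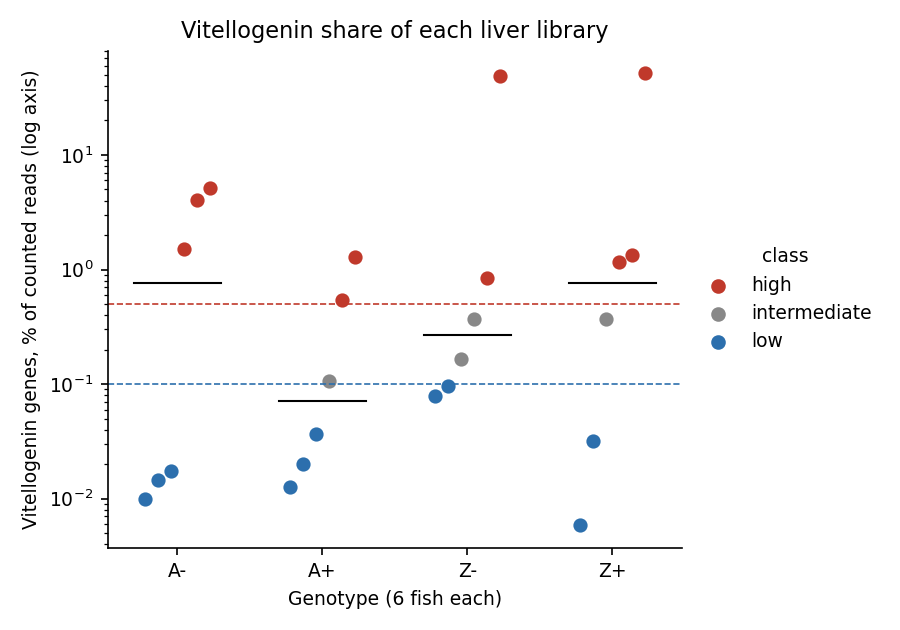
Vitellogenin share of each of 24 liver libraries (log axis, percent of counted reads) by genotype, 6 fish each, with the genotype median as a black line and the class limits of 0.5% and 0.1% as dashed lines. All 4 genotypes hold fish of both classes, and the Z- fish at 49.2% and the Z+ fish at 51.6% stand above all others.

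The make-up of the vitellogenin counts was less variable than their sum. vtg1 took from 50.3% to 62.8% of them in the high fish, and vtg2 was next in each high fish. In the low class the pattern divided. In the 3 low A- fish, replicates 5, 3 and 6, vtg5 was the leading gene with 58.5%, 51.5% and 62.7%, while in the other 7 low fish it took from 7.58% to 15.6%. In the high class vtg5 stayed between 4.36% and 11.7%. A second make-up appeared among the high fish: in A+ replicate 1, Z+ replicate 4 and A+ replicate 2, vtg2 took 29.9%, 28.8% and 26.8%, and vtg6 0.287%, 0.0599% and 0.262%. In the other 7 high fish vtg2 lay between 15.5% and 21.2% and vtg6 between 2.35% and 4.57%. Several zebrafish vitellogenins are near-identical copies, and how reads that match more than 1 copy were counted is not given in the sources used here, so the split among them is less certain than the sum.

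**Figure D2:**
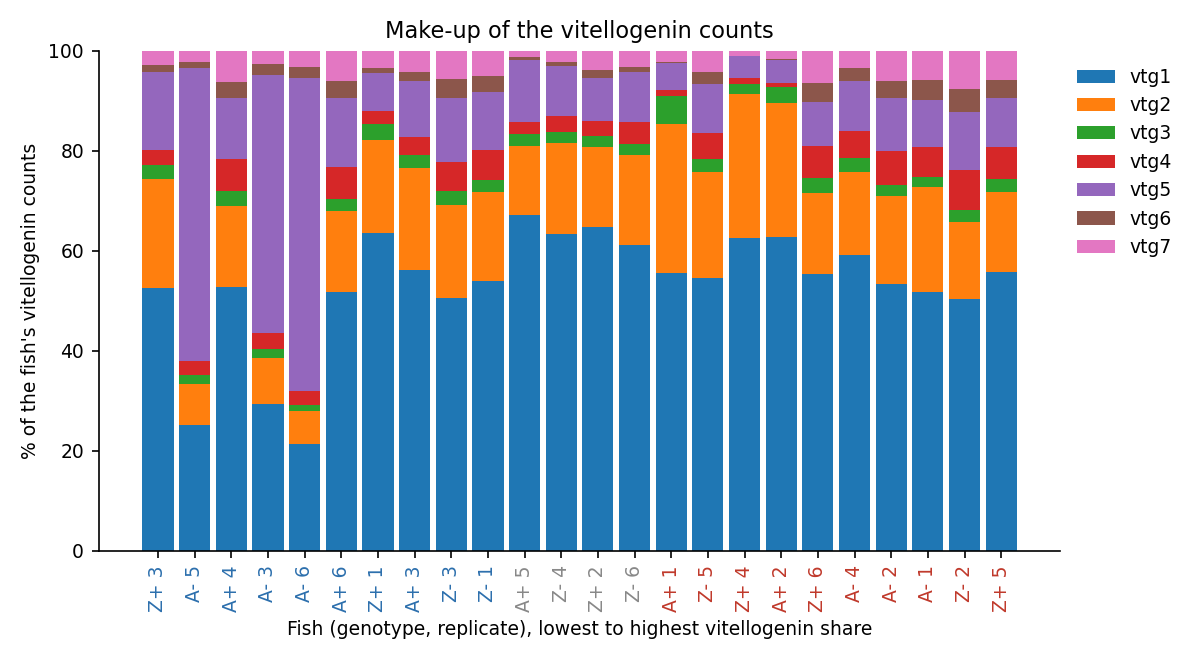
Percentage of each fish's vitellogenin counts that fell on vtg1 to vtg7, with the 24 fish ordered from the lowest to the highest vitellogenin share and named in blue (low), grey (intermediate) or red (high). vtg1 leads in 21 fish, and vtg5 leads in the 3 low A- fish with 51.5% to 62.7%.

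Counted reads ranged from 33898825 to 44715713 per fish, and levels below are CPM, counts per 1000000 of the reads outside the vitellogenin genes, after TMM scaling, so that the load of yolk transcripts does not itself lower every other gene. A floor of 3 counts stood for 0.0521 to 0.162 CPM. The 10 liver-defining genes summed to 48113 to 186153 CPM in the high fish and 76371 to 222068 in the low, so liver transcripts were plentiful in every fish of both classes. None of these genes passed the class test, and 8 of their fold changes were negative, with a median of -0.31. Transcripts of other tissues were present in some fish of both classes. The oocyte and ovary markers (12 of 13 in the table) summed to 0.378 to 2833 CPM in the high class (median 3.46) and 0.478 to 100.2 in the low (median 3.39), with the highest sum, and the lowest liver sum, in the high A+ replicate 2. Intestine markers (6) summed to 4.58 to 1412 CPM and 4.04 to 3118, and exocrine pancreas markers (9) to 67.4 to 29590 and 70.5 to 15477. The transgene row read 983 CPM in the high Z+ replicate 5 against 3791 to 7301 in the other 5 Z+ fish. In bulk RNA fewer cells of a type and less RNA per cell cannot be told apart.

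In the high class, compared with the low class, 495 of 11794 tested genes were higher (4.2% of those tested) and 153 lower (1.3%), or 5.49% in either direction, by edgeR's quasi-likelihood test with genotype as a second term and a Benjamini-Hochberg adjusted p under 0.05. A gene was tested when 3 or more fish had over 100 reads on it, and the vitellogenin genes were not tested. The median log2 fold change was 0.77 among the genes called higher, -0.69 among those called lower and 0.02 over all tested genes. Of the called genes 104 rose and 33 fell by more than 2-fold. The classes overlapped in nearly all of them: all 10 high fish lay on 1 side of all 10 low fish for 3 genes (0.0254% of those tested): fam20cl and BX539332.1 above and pla2g12b below.

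The number of calls changed with the fish included, while few of the called genes changed direction in the other fits of this paragraph. These fits reuse fish that made the calls, so a kept sign is likely by construction and is no separate test. Within single genotypes 648 (A-), 644 (A+), 644 (Z-) and 647 (Z+) of the 648 called genes kept their sign. Without both fish near 50%, Z- replicate 2 and Z+ replicate 5, 6 genes were higher (fam20cl, eevs, PGA3, tgif1, baz1a and suz12a) and 3 lower (socs2, sesn1 and rbp7b), and all 648 called genes kept their sign. Without these and A+ replicate 2, 1 gene was higher and 0 lower, with 1893 genes at an unadjusted p under 0.05. Leaving out single fish gave higher and lower counts of 55 and 8 without A- replicate 1, 198 and 28 without A- 2, 55 and 11 without A- 3, 168 and 30 without A- 4, 75 and 16 without A- 5, and 255 and 92 without A- 6. For the A+ fish the counts were 522 and 106 without replicate 1, 249 and 42 without 2, 294 and 63 without 3, 118 and 19 without 4, and 201 and 35 without 6. For the Z- fish they were 782 and 211 without replicate 1, 79 and 14 without 2, 161 and 32 without 3, and 844 and 362 without 5. For the Z+ fish they were 280 and 40 without replicate 1, 217 and 57 without 3, 273 and 48 without 4, 173 and 29 without 5, and 950 and 412 without 6. Of the 648 genes, 48 higher and 8 lower passed in all 20 of these fits, and all 648 kept their sign in each. A fit on the log2 share over all 24 fish, in place of the classes, called 1653 genes rising and 843 falling with the share, among them 493 of the 495 and 150 of the 153. The same fit without both fish near 50% called 390 rising and 117 falling, among them 337 and 74 of the class calls. With column totals in place of TMM, 1013 genes were higher and 81 lower, or 92.6% of calls on the higher side in place of 76.4%, and the median of all genes was 0.20.

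**Figure D3:**
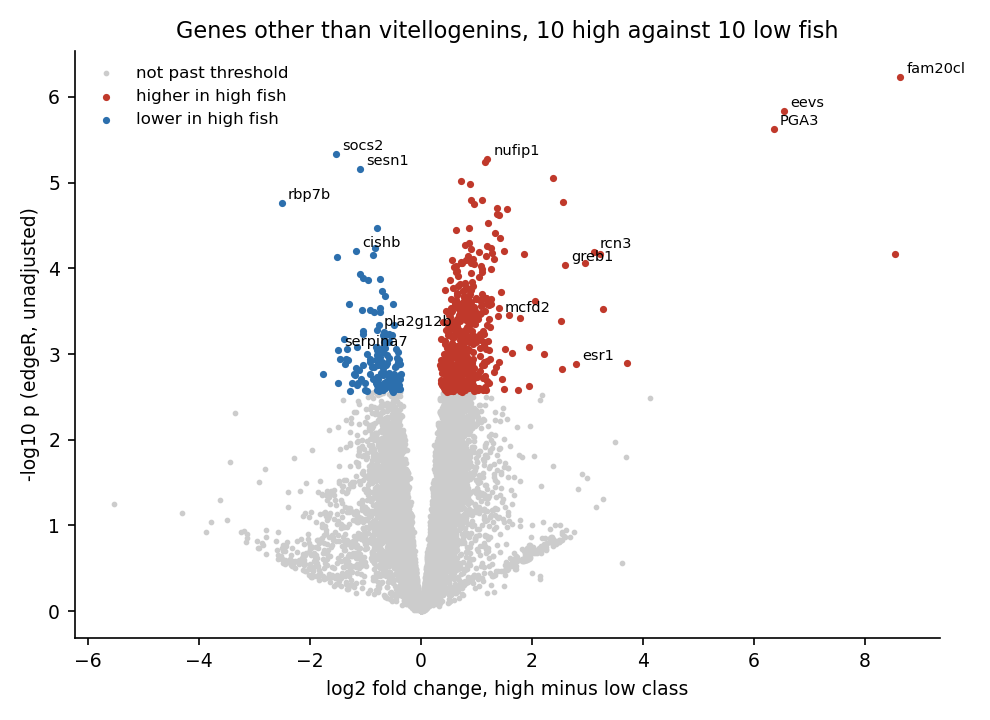
log2 fold change (high minus low class) against -log10 of the unadjusted edgeR p for 11794 genes, 10 fish a class, with genes past the adjusted threshold in red (495 higher) and blue (153 lower). fam20cl, eevs and PGA3 stand apart at the upper right.

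Among the estrogen receptors, only esr1 passed the test. Its level was 3.89, 7.74 and 132 CPM (lowest, median, highest) in the high fish and 1.02, 2.57 and 4.68 in the low, and 8 of 10 high fish lay above every low fish. The log2 fold change was 2.80 ± 0.73 (SE, n = 10 and 10, edgeR adjusted p = 0.0395), and 1.74 (adjusted p = 0.0838) without both fish near 50%, which hold the highest levels. In the same 22 fish it passed on the log2 share, with 0.26 per doubling (adjusted p = 0.0289). With 1 fish left out at a time it passed in 6 of 20 fits. The other nuclear estrogen receptors did not pass: esr2a read 11.6 to 32.9 CPM in the high and 10.6 to 28.4 in the low class (log2 fold change -0.11 ± 0.19, and 0.07 with column totals in place of TMM). For esr2b the ranges were 27.3 to 92.6 and 32.6 to 81.3 CPM (0.18 ± 0.21), and for the androgen receptor gene ar 12.3 to 41.3 and 9.85 to 30.0 (0.36 ± 0.23). The ranges of these receptors overlapped over most of their length. The membrane receptor gene gper1 stayed at or below 0.0404 CPM in both classes and was not tested.

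greb1, a gene induced by estrogen in human breast cells, was at 0.801, 2.67 and 10.2 CPM in the high fish and 0.220, 0.817 and 1.63 in the low. Its log2 fold change was 2.59 ± 0.51 (edgeR adjusted p = 0.0198), and with 1 fish left out at a time it passed in 19 of 20 fits. Like fam20cl below, greb1 had over 100 reads in high fish only and met the read limit for testing through them. The progesterone receptor gene pgr, another estrogen target in mammals, stayed at or below 0.382 CPM and was not tested.

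The largest non-overlapping rise was in fam20cl, a relative of the Golgi kinase that in mammals phosphorylates secreted proteins on serine. Its counts were 0 to 16 in the 10 low fish and 140 to 5919 in the 10 high fish, or 3.49, 12.0 and 306 CPM in the high class. The log2 fold change was 8.64 ± 1.14 (edgeR adjusted p = 0.0070), a value that rests on a few reads in the low class. Only high fish had over 100 reads on fam20cl, so it met the read limit for testing through that class alone. Over all 24 fish fam20cl rose by 1.101 ± 0.043 on the log2 scale for each doubling of the vitellogenin share (adjusted p = 1.8e-13), and by 1.15 in the 22 fish without both near 50%. The 6 low fish with the smallest shares had 0 to 3 counts, at or below the floor of 3, and their order cannot be read. No fit was made within a class. A second family member, fam20ca, read 1.02, 4.34 and 12.9 CPM in the high and 0.0876, 1.07 and 5.47 in the low class (log2 fold change 1.95 ± 0.55, adjusted p = 0.0473). With 1 fish left out at a time fam20ca passed in 3 of 20 fits. Without both fish near 50% it did not pass by class (edgeR adjusted p = 0.137) and passed on the log2 share (adjusted p = 0.0294).

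eevs encodes the sugar-phosphate cyclase that starts the synthesis of gadusol, a sunscreen compound that zebrafish place in their eggs. It read 7.30, 137 and 756 CPM in the high fish and 0.276, 1.18 and 19.6 in the low, and 9 of 10 high fish lay above every low fish. Its log2 fold change was 6.54 ± 0.92 (edgeR adjusted p = 0.0086). PGA3, listed under the symbol of a pepsinogen, read 27.6, 503 and 2537 CPM in the high class and 0.394, 5.67 and 123 in the low (log2 fold change 6.36 ± 0.93, adjusted p = 0.0094). In both genes the lowest high fish was Z+ replicate 6, which holds 1.34% vitellogenin. With 1 fish left out at a time both passed in all 20 fits. rcn3, a calcium-binding protein of the endoplasmic reticulum lumen, read 184, 1125 and 2489 CPM against 17.7, 79.2 and 651, a log2 fold change of 3.11 ± 0.60 (adjusted p = 0.0198). The other 5 members of its family list, which was written after the calls were seen, did not pass.

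**Figure D4:**
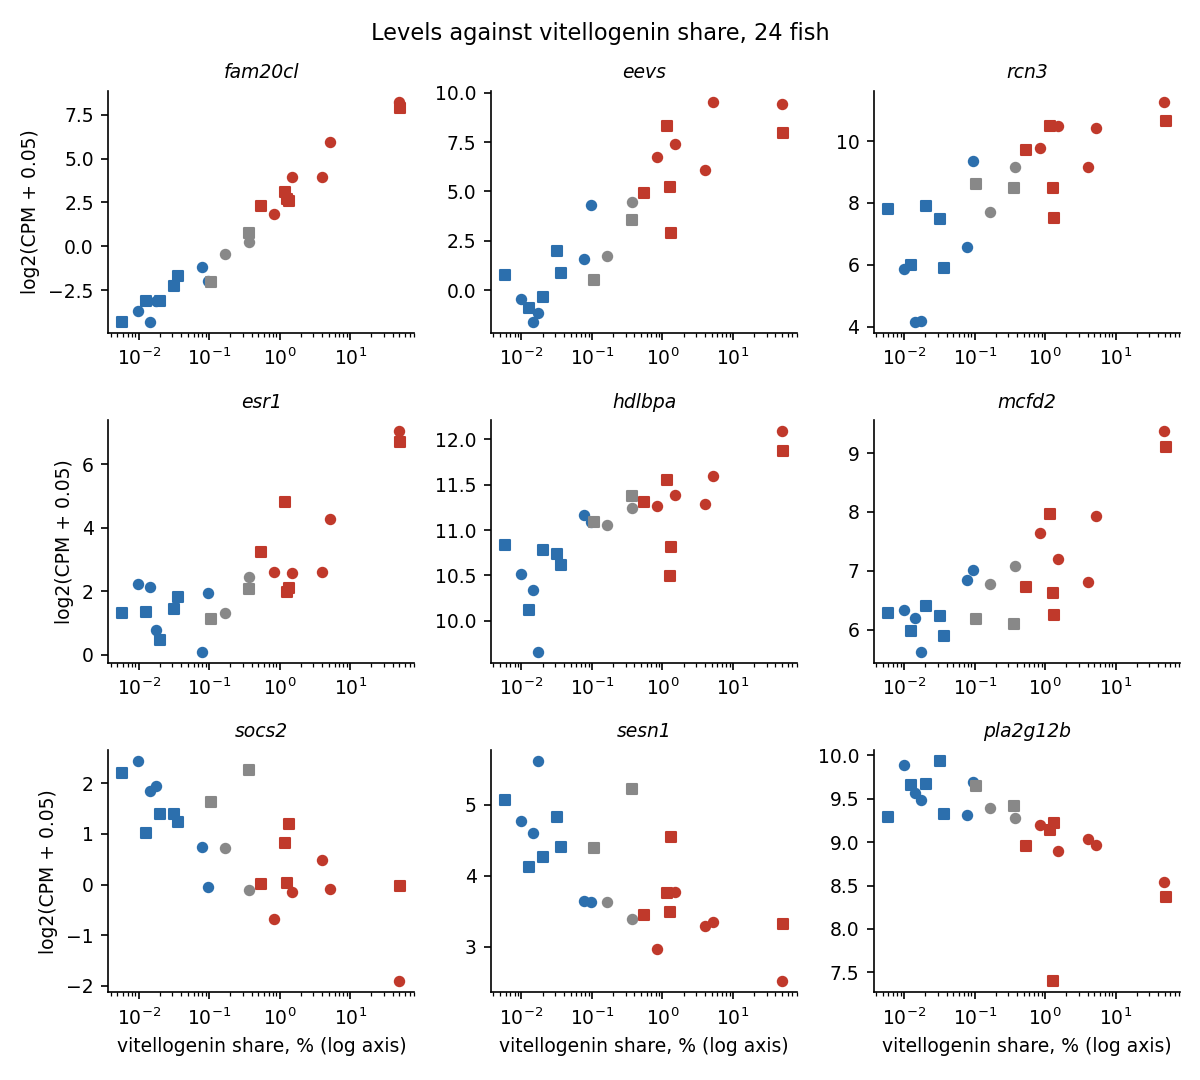
Level of 9 genes as log2(CPM + 0.05) against the vitellogenin share (log axis, percent) in 24 fish, coloured by class (red high, grey intermediate, blue low), with squares for transgenic and circles for non-transgenic fish. fam20cl is higher at higher shares above its lowest points, which rest on 0 to 3 counts in the 6 fish of smallest share, and esr1 and mcfd2 are highest in the 2 fish near 50%.

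Genes that carry proteins through the secretory pathway lay almost all on the higher side, and few passed the class test. Of the 21 tested genes for protein entry into the endoplasmic reticulum, 2 rose and 0 fell, all 21 fold changes were positive and their median was 0.44, beside 0.02 for all genes. ssr1, a subunit of the translocon-associated complex, read 113, 167 and 645 CPM in the high and 43.7, 107 and 146 in the low fish (log2 fold change 1.14 ± 0.30, edgeR adjusted p = 0.0395). srp72, of the signal recognition particle, was the other (0.68 ± 0.19, adjusted p = 0.0462). The 2 rises became 5 with DESeq2, 8 with limma, 11 with column totals and 16 on the log2 share over 24 fish, but 0 without both fish near 50%, by class or by share. Of all 11794 genes these settings called 972, 1265, 1013 and 1653 higher, and without both fish near 50% 6 by class and 390 by share. These are also the backgrounds for the counts of the lists below.

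Sugar transfer gave 4 rises and 0 falls among 17 genes, with a median of 0.61. DESeq2, limma and column totals each gave 10 rises and the log2 share over 24 fish 14, while without both fish near 50% there were 0 by class and 2 by share. rpn1 and stt3a belong to the enzyme complex that attaches N-glycans. rpn1 read 82.6, 151 and 402 CPM against 55.1, 85.1 and 130 (0.91 ± 0.20, edgeR adjusted p = 0.0255), and stt3a had a log2 fold change of 0.85 ± 0.20 (adjusted p = 0.0320). mogs and prkcsh, which encode a glucosidase and a glucosidase subunit that trim the new glycan, rose by 0.84 and 0.83. The folding factors of the endoplasmic reticulum gave no call among 27 genes, although 26 fold changes were positive (median 0.59) and 13 had an unadjusted p under 0.05. Of the 27, 8 passed with DESeq2, 9 with limma, 10 with column totals and 17 on the log2 share over 24 fish. Without both fish near 50%, 0 passed by class, with a median of 0.36, and 0 by share. Of the regulators of the unfolded protein response, ern1, the sensor that splices xbp1 mRNA, rose (0.91 ± 0.18, adjusted p = 0.0211), and the median of the 13 regulators was -0.07.

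lman1 and mcfd2, which in human cells form a cargo receptor for coagulation factors, were both of the rises among 38 genes of transport to the Golgi, a share near the 4.2% of all tested genes that were higher. By its count in the class fit the list thus does not stand out, and that count was 1 without A+ replicate 2. On the log2 share over 24 fish 15 of the 38 rose and 1 fell, beside 1653 and 843 of all 11794 genes. mcfd2 read 76.1, 174 and 664 CPM in the high and 49.2, 76.5 and 129 in the low class (1.396 ± 0.318, edgeR adjusted p = 0.0258), and lman1 had 0.96 ± 0.26 (adjusted p = 0.0432). Both were highest in the 2 fish near 50%, and without them the values were 0.97 (adjusted p = 0.0742) and 0.59 (adjusted p = 0.120). On the log2 share in the same 22 fish mcfd2 passed (adjusted p = 0.0222) and lman1 did not (adjusted p = 0.0664). hdlbpa encodes a vigilin, an RNA-binding protein that in mammals attaches to mRNAs of secreted proteins at the endoplasmic reticulum and in frog liver binds vitellogenin mRNA. It read 1446, 2609 and 4359.7 CPM against 808, 1634 and 2305 (0.77 ± 0.19, adjusted p = 0.0323), and 8 of 10 high fish lay above every low fish. hdlbpa was singled out after the calls were seen, and with 1 fish left out at a time it passed in 9 of 20 fits. Without both fish near 50% it did not pass by class (edgeR adjusted p = 0.121) and passed on the log2 share (adjusted p = 0.0286).

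A large set of rises was in genes that build ribosomes, process RNA and modify tRNA. These lists were written after the calls were seen, so their counts describe the calls and are no separate evidence. Of 86 ribosome biogenesis genes 27 rose, 0 fell and all 86 fold changes were positive, with a median of 0.65. Of 28 tRNA modification genes 13 rose (median 0.73), of 20 genes of RNase P and the RNA exosome 7 rose (median 0.69), and of 41 genes of the nuclear pore and transport 15 rose (median 0.52), with 0 falls in each. These counts moved widely with the fit, in the order ribosome biogenesis, tRNA modification, RNase P and exosome, nuclear pore. Without A+ replicate 2 the rises were 18, 7, 2 and 6. Without both fish near 50% the class fit called 0 in each, with medians of 0.54, 0.63, 0.63 and 0.44, while the fit on the log2 share in the same 22 fish called 27, 9, 5 and 16. Other settings gave more calls: 60, 20, 14 and 23 with DESeq2, 56, 19, 12 and 25 with limma, 74, 22, 17 and 23 with column totals, and 77, 25, 15 and 26 on the log2 share over 24 fish.

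nufip1, a factor that assembles small nucleolar ribonucleoproteins, read 8.57, 16.0 and 30.9 CPM in the high and 2.79, 9.10 and 21.0 in the low class (1.195 ± 0.186, edgeR adjusted p = 0.0112). The RNA helicases ddx31 and ddx52 rose by 1.29 and 1.18, and 8 of 10 high fish were above every low fish for ddx31. The tRNA enzymes dus1l (dihydrouridine synthase) and pus1 (pseudouridine synthase) rose by 0.91 and 0.90, and rpp38, a subunit of RNase P, by 1.404. With 1 fish left out at a time each of these 6 genes passed in all 20 fits. Of 22 genes of RNA polymerases I and III, 6 rose and 1 fell, or 3 and 1 without A+ replicate 2. polr3e, a subunit of polymerase III, read 33.4, 59.7 and 68.8 CPM against 24.5, 33.2 and 54.4 (0.73 ± 0.14, adjusted p = 0.0198), and polr1b of polymerase I had 0.88 ± 0.19 (adjusted p = 0.0255). Protein arginine methyltransferases gave 6 rises among 8 genes, led by prmt7 (1.22 ± 0.22, adjusted p = 0.0176). This list and that of the polymerases were also written after the calls were seen, so their counts are no separate evidence. Of the methyltransferases 2 passed without A+ replicate 2, and without both fish near 50% 0 by class and 4 by share.

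Genes listed as cytosolic ribosomal proteins gave no rise. The list also took in S6 kinase genes: rps6ka5, rps6kl1 and rps6ka2 did not meet the read limit, and the tested genes may hold others. Of 87 tested, 0 rose and 1 fell, and their median was 0.01, near that of all genes. Without A+ replicate 2 the median was 0.16, again with 0 rises and 1 fall, and with column totals it was 0.15 with 3 rises, where the median of all genes was 0.20. The 1 that fell, rps8b, is a low-level copy at 1.35 to 6.58 CPM in the high and 3.31 to 10.3 in the low class (-1.05 ± 0.25, edgeR adjusted p = 0.0309). All 20 aminoacyl tRNA synthetase genes had positive fold changes (median 0.60), of which vars, for valine, passed (1.02 ± 0.28, adjusted p = 0.0428). Without A+ replicate 2 no member passed by edgeR. With that fish kept, 5 passed with DESeq2, and 18 of the 20 rose on the log2 share over 24 fish. Without both fish near 50%, 0 passed by class, with a median of 0.29, and 1 by share. In that class fit vars had 0.65 (edgeR adjusted p = 0.129).

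**Figure D5:**
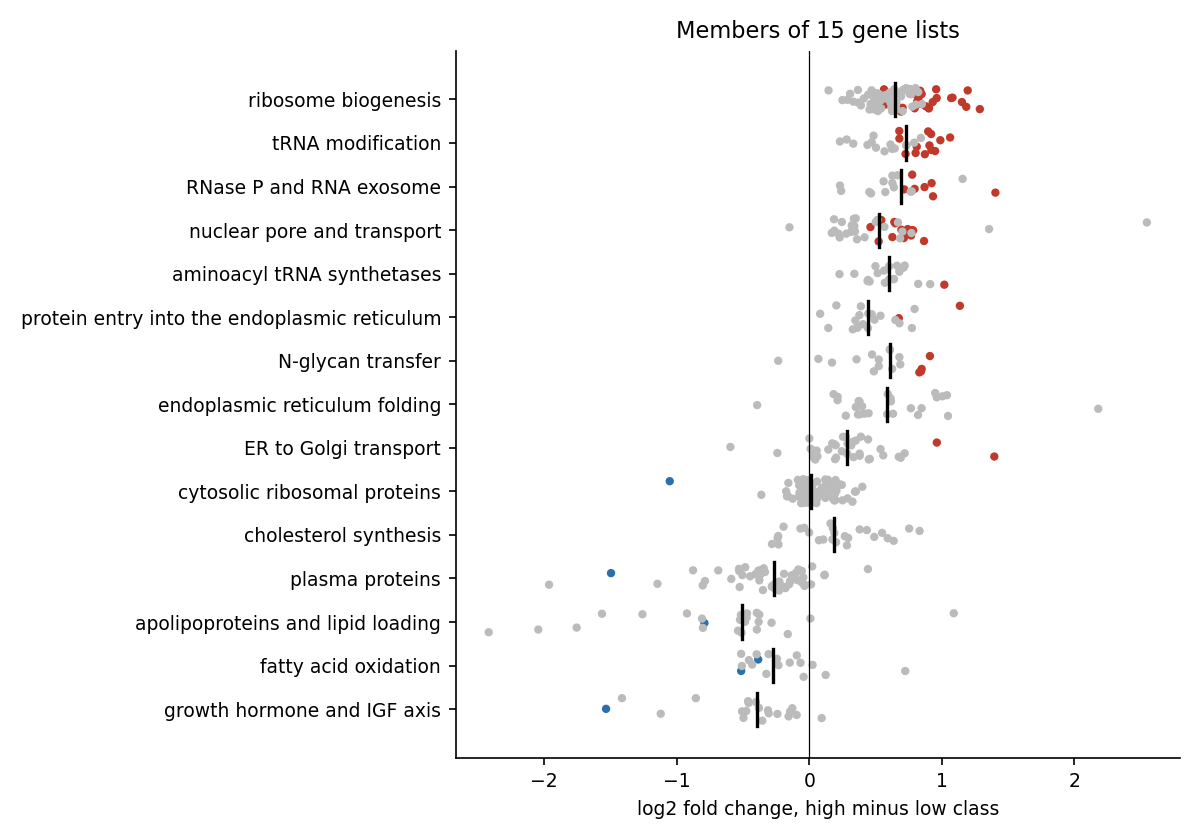
log2 fold change (high minus low class) of the tested members of 15 gene lists, each point a gene, with the list median as a black bar and members past the adjusted threshold in red (higher) or blue (lower). Ribosome biogenesis, tRNA and secretory lists lie to the right of 0, cytosolic ribosomal proteins centre on 0.01, and apolipoproteins lie to the left with a median of -0.51.

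Some genes that supply building blocks rose. aldh18a1 and pycr1b, enzymes of proline synthesis, had log2 fold changes of 1.07 ± 0.24 (edgeR adjusted p = 0.0258) and 0.95 ± 0.23 (adjusted p = 0.0320), and 8 of 10 high fish were above every low fish for aldh18a1. gpt2, the mitochondrial alanine aminotransferase, rose by 0.95, while got2a, the mitochondrial aspartate aminotransferase, fell by 0.69. Over the 20 genes of that list 3 rose and 1 fell, with a median of -0.08, and without A+ replicate 2 by edgeR 0 rose and 0 fell. Of 15 amino acid transporters 2 rose: slc43a1a, a carrier of large neutral amino acids, at 16.4, 27.9 and 60.9 CPM against 7.88, 12.6 and 28.2 (1.26 ± 0.24, adjusted p = 0.0198), and slc3a2b, the heavy chain of several exchangers (0.98 ± 0.23, adjusted p = 0.0282). Among the 15 transporters 9 fold changes were negative and the median was -0.20, and 4.2% of all tested genes were higher. cad and umps, which make pyrimidines, rose by 1.24 and 1.22. They belong to a nucleotide synthesis list written after the calls were seen, in which 4 of 18 genes were higher. Genes of cholesterol synthesis, 26 tested, gave no call by edgeR (median 0.18, 1 gene at an unadjusted p under 0.05) and none by DESeq2. Their median was 0.41 without A+ replicate 2, 0.33 with the oocyte score as a covariate and 0.08 without both fish near 50%, again with no call.

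Cell cycle genes gave no call among 24 by edgeR, with 24 positive fold changes, a median of 1.22 and 10 at an unadjusted p under 0.05. DESeq2 called 7 of them higher, limma 16, column totals 0 and the log2 share over 24 fish 3. This list moved with A+ replicate 2, the fish with the highest oocyte marker sum, and its median was 0.78 without that fish, with 1 rise. Its median was 0.66 with the oocyte score as a covariate. Of the 18 tested genes of the oocyte and ovary list 0 passed by edgeR, 0 had an unadjusted p under 0.05 and 0 passed by DESeq2, while limma's voom with quality weights called 17 higher. All 18 fold changes were positive by edgeR, with a median of 1.95. That median was 0.97 without A+ replicate 2 and 2.87 without both fish near 50%, again with 0 calls.

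Among the falls, pla2g12b was the named gene whose classes did not overlap. It encodes a secretory phospholipase relative that in zebrafish and mice helps load lipid onto lipoproteins that carry apolipoprotein B. It read 168, 499.5 and 594 CPM in the high fish and 627, 782 and 979 in the low, a log2 fold change of -0.79 ± 0.19 (edgeR adjusted p = 0.0309). With 1 fish left out at a time it passed in 12 of 20 fits. Of 25 genes for apolipoproteins and lipid loading 1 fell, 0 rose and 23 had negative fold changes, with a median of -0.51. DESeq2 gave 2 falls, limma 5 falls and 1 rise, and the log2 share over 24 fish 10 falls. Of all 11794 genes these settings called 555, 736 and 843 lower. Without both fish near 50% there were 0 falls by class and 1 by share. The 1 that fell in the main fit, apoa4b.1, read 368 to 2021 CPM against 756 to 2412 (-0.79 ± 0.22, edgeR adjusted p = 0.0435). It is also made in the intestine, whose markers varied widely in both classes. mttp, the transfer protein that loads apolipoprotein B, had a fold change of 0.01 ± 0.18.

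Other plasma proteins gave 1 fall among 48, with 43 negative values and a median of -0.27, beside 1.3% of all tested genes called lower. It was serpina7, listed under the symbol of the thyroxine carrier, at 45.9, 187 and 521 CPM against 143, 558 and 752 (-1.50 ± 0.38, edgeR adjusted p = 0.0361). With DESeq2 4 of the 48 plasma protein genes fell, with limma 9 and on the log2 share over 24 fish 7. The same settings called 555, 736 and 843 of all 11794 genes lower. Both lists moved with A+ replicate 2, where the liver markers were lowest: without it the medians were -0.39 for apolipoproteins, with no call, and -0.12 for plasma proteins, with 17 positive values and no call. The part of that fish's other tissue in these values was not tested.

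A pair of growth hormone feedback genes fell, chosen after their values were seen. socs2, a feedback inhibitor that STAT5 induces, read 0.216, 0.943 and 2.23 CPM in the high and 0.916, 2.59 and 5.37 in the low class (-1.53 ± 0.24, edgeR adjusted p = 0.0112). cishb, a second such inhibitor, had -1.18 ± 0.23 (adjusted p = 0.0198), and each passed in all 20 fits with 1 fish left out. cishb met the read limit for testing through low and intermediate fish only. For socs2, at 2.23 CPM or less in the high class, no high fish except possibly A+ replicate 2 reached that limit. Both genes thus rest on few reads in the high class. Of the 20 tested genes of the growth hormone and IGF list socs2 was the 1 that passed, beside 1.3% of all tested genes called lower. In the list 19 fold changes were negative and the median was -0.39. In that list 5 fell with DESeq2, 4 with limma and 3 on the log2 share over 24 fish. The same settings called 555, 736 and 843 of all 11794 genes lower. igf1 itself read 10.4 to 46.9 CPM against 10.6 to 52.9 (-0.31 ± 0.27) and the receptor gene ghra 3.99 to 8.10 against 4.63 to 12.0 (-0.35 ± 0.20), with wide overlap.

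sesn1, a stress-induced inhibitor of the growth regulator mTORC1 in mammals, read 5.67, 10.5 and 23.4 CPM in the high fish and 12.4, 22.7 and 49.1 in the low (-1.101 ± 0.175, edgeR adjusted p = 0.0117). rbp7b, a retinol-binding protein gene, read 0.0404, 1.80 and 14.6 CPM against 1.00, 15.7 and 54.4 (-2.51 ± 0.43, adjusted p = 0.0141). lrata, which esterifies retinol, had -0.84 ± 0.22 (adjusted p = 0.0402). Both belong to a retinoid list written after the calls were seen, in which 2 of 18 tested genes fell and 0 rose. The median of that list was -0.34. With 1 fish left out at a time rbp7b passed in all 20 fits and lrata in 5. Without Z- replicate 2 and Z+ replicate 5, rbp7b passed by class (edgeR adjusted p = 0.0449) and lrata did not (adjusted p = 0.129). On the log2 share in the same fish neither passed (adjusted p = 0.0608 and 0.0737). fbp1a, of glucose synthesis, fell by 1.05 on the log2 scale, and acadl, of fatty acid oxidation, fell by 0.39. Of 18 fatty acid oxidation genes 2 fell by edgeR, beside 1.3% of all tested genes called lower, and 0 without A+ replicate 2. DESeq2 gave 7 falls in that list, limma 6 falls and 1 rise, and the log2 share over 24 fish 9 falls and 1 rise. The same settings called 555, 736 and 843 of all 11794 genes lower. Of 31 circadian clock genes 1 was higher and 2 lower, beside 5.49% of all genes called in either direction: cry1ab higher (0.71 ± 0.16) and nr1d2b and rorca lower (-0.62 ± 0.16 and -0.73 ± 0.20), and within Z- fish alone the value of rorca was 0.03. With 1 fish left out at a time cry1ab passed in 16 of 20 fits, nr1d2b in 3 and rorca in 4, and on the log2 share over 24 fish only cry1ab of these passed (adjusted p = 0.0108, against 0.0542 and 0.0999). The time of day at which each fish was taken is not in the labels.

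Of the 11 tested erythrocyte genes 1 fell, beside 1.3% of all tested genes called lower, and all 11 fold changes were negative. The falls were 0 without A+ replicate 2, with column totals, or without both fish near 50% by class. DESeq2 gave 3 falls, limma 4 and the log2 share over 24 fish 3, where 555, 736 and 843 of all 11794 genes were lower. The 4 erythrocyte markers summed to 113 to 624 CPM (median 286) in the high fish and 335 to 886 (median 514) in the low. hbaa1, an alpha globin gene, read 35.7, 72.6 and 163 CPM against 82.0, 131 and 184 (-0.79 ± 0.22, edgeR adjusted p = 0.0471), and hbba1 had -0.89 ± 0.28 (adjusted p = 0.0645) and did not pass. With 1 fish left out at a time hbaa1 passed in 3 of 20 fits. Without both fish near 50% it did not pass by class (edgeR adjusted p = 0.121) and passed on the log2 share (adjusted p = 0.0446). Whether the amount of blood left in a liver has a part in other falls was not tested.

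The 4 intermediate fish took no part in the fit of the classes. Their mean lay between the means of the low and high fish for 390 of the 495 genes called higher (78.8%) and 128 of the 153 called lower (83.7%). Called genes have class means far apart, so a value between them is likely by construction, and these counts are a description. The fish were not alike. Z- replicate 6, with a share of 0.370%, lay on the high side of the low mean for 85.3% of the higher genes and 65.7% of all tested genes, while Z+ replicate 2, with 0.366%, did so for 32.1% and 50.4%.

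The rises and falls had the same sign in each genotype for most genes. Fitted within A-, A+, Z- and Z+ on their own, 491 of the 495 and 148 of the 153 kept 1 sign in all 4 genotypes, against 3727 of 11794 tested genes with any common sign. The same fish made these calls, so this describes them and is no separate test. In fam20cl the log2 fold change was 9.77 within A-, 5.42 within A+, 9.001 within Z- and 9.95 within Z+, and in esr1 1.55, 1.44, 4.83 and 4.16, the Z- and Z+ values including the fish near 50%. An interaction of class with the transgene was called for 0 genes by edgeR, with 571 at an unadjusted p under 0.05, and an interaction of class with line for 0, with 992.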

How the data were processed

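Liver polyA RNA of 24 fish was sequenced by the authors in 2 runs, and the deposited counts are whole reads per gene without normalization. The labels name STAR and featureCounts and the genome build GRCz11, to which the authors added the transgene. The strand setting of the counting and the run of each fish are not given in the sources used here. The study left out fish it judged outliers, which its text does not name, so all 24 were kept here. Each column was assigned to its fish through the label that names it, with 0 columns left over.

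The vitellogenin share of a fish is its counts on vtg1 to vtg7 over all its counts. The members, gene lists and tests were chosen with earlier results of these data known. Library sizes without the vitellogenin genes were scaled by TMM over 24 fish. Genes with over 100 reads in 3 or more fish were fitted with edgeR 4.0.16 (R 4.3.3, quasi-likelihood) with class and genotype as terms, and p was adjusted by Benjamini-Hochberg over 11794 genes at a threshold of 0.05. The common dispersion was 0.274. The standard error (SE) is the absolute fold change divided by the root of F. The table holds 25 pairs of tested rows with identical counts under names that differ in capitals, of which 2 rows were called. The p-values set the class difference against the spread among fish left after class and genotype.

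Genes named are the vitellogenins, receptors and known estrogen-response genes, the largest non-overlapping changes, up to 4 called members of each list by adjusted p and the leading members of other-tissue lists. Genes of the lists written later, and those with the smallest p, were chosen after their values were seen. Alternatives used DESeq2 1.42.0, limma 3.58.1, other scalings, filters, limits, covariates and left-out fish. The steps were tested on simulated data. Cell type sums use the markers of each tissue. The authors' RPKM values, proteomics and other experiments were not used here. A result of the rule for named genes is not reported here.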

Additional observations from a re-analysis of the deposited data

Results flagged for a closer look

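In 186 sets of values (91 named genes in the high and the low class, and the vitellogenin share in each genotype), a fish stood apart by its gap to the nearest other fish in 10, where chance gives about 1 in 20. A+ replicate 2 was the fish in 5 of the 8 gene sets. It was the highest high fish for ddx31 (27.5 CPM, others up to 10.0), exosc3 (23.6 CPM, others up to 10.3), nup58 (42.4 CPM, others up to 23.7) and si:dkey-217d24.6 (14.0 CPM, others up to 7.48), and the lowest for pla2g12b (168 CPM, others from 330.4). This fish also holds the highest oocyte and ovary marker sum (2833 CPM) and the lowest liver marker sum (48113 CPM), and the part of either in these values was not tested.

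Z+ replicate 6 was the lowest high fish for PGA3 (27.6 CPM, others from 240). A- replicate 6 was the lowest low fish for serpina7 (143 CPM, others from 337) and for ssr1 (43.7 CPM, others from 80.2). In the low class it holds the highest intestine (3118 CPM), exocrine pancreas (15477 CPM) and leukocyte (120 CPM) marker sums. Its liver (76371 CPM) and erythrocyte (335 CPM) marker sums are the lowest of that class, and the part of any of these was not tested. The vitellogenin share stood apart within its genotype in Z- replicate 2 (49.2%, others up to 0.839%) and Z+ replicate 5 (51.6%, others up to 1.34%). The share was examined as a plain percentage, while genes were examined on the log2 scale, and the share was not examined on a log scale. Both flags are a description, since the share made the classes.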

How the results depend on the processing

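Against 495 genes higher and 153 lower, DESeq2 gave 972 and 555 and limma's voom with quality weights 1265 and 736. Column totals in place of TMM gave 1013 and 81. They moved the median of all genes from 0.02 to 0.20, and the share of higher among all calls from 76.4% to 92.6%, against 63.7% with DESeq2 and 63.2% with limma. Without a filter 55 and 10 genes passed of 25783 tested, and 386 and 97 with filterByExpr. Without the genotype term 13 and 0 passed (2854 at an unadjusted p under 0.05). With the oocyte score as a covariate 274 and 35 passed, and 321 and 102 with the intestine score. Limits of 1% and 0.05% (8 fish a class) gave 447 and 76. A single limit of 0.5% over 24 fish gave 1245 and 447. A fit on the log2 share gave 1653 and 843 over 24 fish, where values are changes per doubling. Settings chosen after seeing the data gave 6 and 3 without both fish near 50%, 1 and 0 without these and A+ replicate 2, 1790 and 815 on the log2 share without A+ replicate 2, and 390 and 117 on the log2 share without both near 50%. Leaving out 1 fish at a time gave 55 to 950 higher and 8 to 412 lower. Within single genotypes edgeR called 0 and 0 (2409, 2564, 193 and 433 genes at an unadjusted p under 0.05 in A-, A+, Z- and Z+). With the replicate number as a block 0 and 0 passed by edgeR (976 at an unadjusted p under 0.05). The labels do not say that the number marks a shared origin. Residuals of same-numbered fish correlated above 0.1 in 12 of 24 pairs (median 0.116), against 56 of 166 other pairs (median -0.0238), and 2 of 20 fish correlated best with a fish of their own number. The value of esr2a changed sign with column totals (0.0714), without the genotype term (0.0384), with the block (0.114), within Z+ (0.642) and without Z- replicate 3 (0.0206, in a range of -0.199 to 0.0206 with 1 fish left out), that of esr2b within A- (-0.0470) and Z- (-0.129), and that of rorca within Z- (0.0285). The cause of these shifts was not tested. Genes near 3 counts per library, below 0.0521 to 0.162 CPM, cannot be told from 0 at this depth.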
